A study of Mus musculus with 8 samples.

Results

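The account covers 10 genes that build or tune the growing nerve ending and its microtubules, measured in cells sorted from the mouse central amygdala. The genes were Basp1, Gap43, Marcks, Marcksl1, Stmn1, Stmn2, Stmn3, Dpysl2, Crmp1 and Tubb3, 10 of the 20692 genes in the files. They were chosen by symbol, with earlier results of the age comparison already known, above all the low level of Basp1 in the older mice. Age differences of these genes are therefore given as a description, and where edgeR's calls among them are counted nothing is read from the count. The comparison between the cell populations is tested.

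RNA came from male mice that carried 1 of 2 Cre alleles together with a Cre-dependent red reporter, Rosa::loxP-STOP-loxP-td-Tomato. In PKCd libraries the allele was PKC delta-type::Cre, with Cre driven by the gene of protein kinase C delta, and the mice were 18 weeks (replicates 3 and 4) or 9 weeks old (replicates 1 and 2). In SST libraries it was SST::Cre, with Cre driven by the somatostatin gene, and the mice were 20 weeks (replicates 3 and 4) or 8 weeks old (replicates 1 and 2). Each of the 8 libraries held about 1000 td-Tomato-positive cells from the punched central amygdala of 1 mouse, freed with papain and sorted by fluorescence. The labels name no treatment, and every mouse carried the reporter. A Cre reporter of this kind labels any cell in which Cre has been active, including earlier in life, so the label is wider than current expression of the driver gene.

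Growth cones are the motile tips of extending axons, and adult neurons keep part of the same machinery in their endings. BASP1, GAP-43 and the MARCKS proteins are held at the inner face of the plasma membrane by lipid anchors or basic stretches, where they bind the phospholipid PIP2 and influence the actin network. Stathmins bind tubulin dimers and favour microtubule disassembly, CRMP proteins bind tubulin and carry semaphorin signals, and Tubb3 encodes a beta tubulin that is used as a neuronal marker. Several of these genes are not restricted to neurons: Marcks, Stmn1, Marcksl1 and Dpysl2 are also used by glia or their precursors.

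The 4 membrane proteins carry their anchor signal at the very start of the protein, so the first 30 coding bases are shown, 5′ to 3′, from the GENCODE coding sequences of GRCm38. In Basp1, Marcks and Marcksl1 the capitals mark the start codon and the glycine codon after it, the residue that receives the myristoyl group. In Gap43 the capitals mark the 2 cysteine codons that are palmitoylated.
Basp1: ATGGGAggcaagctgagcaagaagaagaag
Gap43: atgctgTGCTGTatgagaagaaccaaacag
Marcks: ATGGGTgcccagttctccaagaccgcagcg
Marcksl1: ATGGGCagccagagctctaaggctccccgg
The start codon of Basp1 lies on the minus strand of chromosome 15 at 25364907 to 25364909, in exon 2 of 2. That of Gap43 lies on the minus strand of chromosome 16 at 42340500 to 42340502, in exon 1 of 3. The start codon of Marcks is on the minus strand of chromosome 10 at 37138533 to 37138535, and that of Marcksl1 is on the plus strand of chromosome 4 at 129513830 to 129513832.

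Marcks and Marcksl1 are relatives, which bears on how well short reads can be assigned to each. Their most alike stretch of 75 coding bases, which spans the basic effector domain, matched at 55 of 75 bases (73.3%), shown in capitals.
Marcks, coding bases 436 to 510: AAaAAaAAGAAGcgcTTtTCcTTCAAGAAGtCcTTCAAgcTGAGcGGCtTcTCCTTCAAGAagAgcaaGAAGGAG
Marcksl1, coding bases 259 to 333: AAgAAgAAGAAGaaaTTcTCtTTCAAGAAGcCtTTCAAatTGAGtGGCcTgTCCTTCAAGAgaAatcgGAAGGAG
Estimated counts of Marcks, Dpysl2, Stmn1, Stmn2, Tubb3 and the 2 transcripts of Crmp1 were more than 0.01 from a whole number in at least 1 library, because the authors' tool divided reads that fit more than 1 transcript. Values of these 6 genes carry that added uncertainty. Counts of Marcksl1 were within 0.01 of a whole number in every library, while those of Marcks were not in any. Which transcripts shared the divided reads of Marcks was not tested.

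The levels rest on estimated counts and on TPM (a level corrected for transcript length, scaled to the same total in every library) that the authors made per transcript. Totals were 964361 to 2522749 estimated counts in the libraries of 18 to 20 weeks and 10316149 to 18242496 in those of 8 to 9 weeks. The file names carry 2 codes, 1 for all older and another for all younger libraries. What the codes stand for is not given in the labels. Age class, depth and whatever the code marks therefore cannot be told apart. As a check of the sort, Prkcd levels ran over 106.5 to 225.7 TPM in PKCd against 0 to 30.2 TPM in SST libraries, with no overlap. Sst levels ran over 0.209 to 222.7 TPM in PKCd against 116.3 to 296.2 TPM in SST libraries, which overlapped. Markers of other cells were abundant. Summed TPM of 12 microglial markers was 30860 to 50160 in PKCd libraries and 464 to 5960 in SST libraries, and 8 oligodendrocyte markers summed to 10920 to 59990 over all libraries. By comparison, 12 neuron markers summed to 238 to 1601 TPM. Of the defining GABA neuron markers, Gad1 stood at 1.71 to 106.6 TPM, and Slc32a1 was listed at 0 in 4 of 8 libraries and reached 12.2 TPM at most. In such bulk samples, fewer cells of a type and less RNA per cell cannot be told apart.

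Stmn1 was by far the most abundant of the 10 genes. Its mean was 2057 ± 956 TPM (SD, n = 8), it ranked first in all 8 libraries, and it made up 47.9% to 80.7% of the summed TPM of the 10 genes. Next in the order of means came Dpysl2 (288.5 TPM), Gap43 (246.9 TPM), Basp1 (216.8 TPM), Marcks (169 TPM), Stmn3 (160.7 TPM) and Marcksl1 (107.6 TPM). Stmn2, Tubb3 and Crmp1 were lower, with means of 26.1, 21.0 and 11.7 TPM. Only 2 steps in this order held in every library, Stmn1 above Dpysl2 and Marcksl1 above Stmn2. At the other steps the neighbours overlapped and changed places between libraries, as between Basp1 and Marcks, where Basp1 was the higher in 3 of 8. Stmn1 spanned a 3.29-fold range over the libraries and Basp1 a 136-fold range. PKCd replicate 2 had the highest level of 7 of the 10 genes and SST replicate 2 that of the other 3, so a pair of libraries of the 8 to 9 week class held every maximum. PKCd replicate 2 was also the PKCd library whose Sst level lay within the range of the SST libraries.

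**Figure D1:**
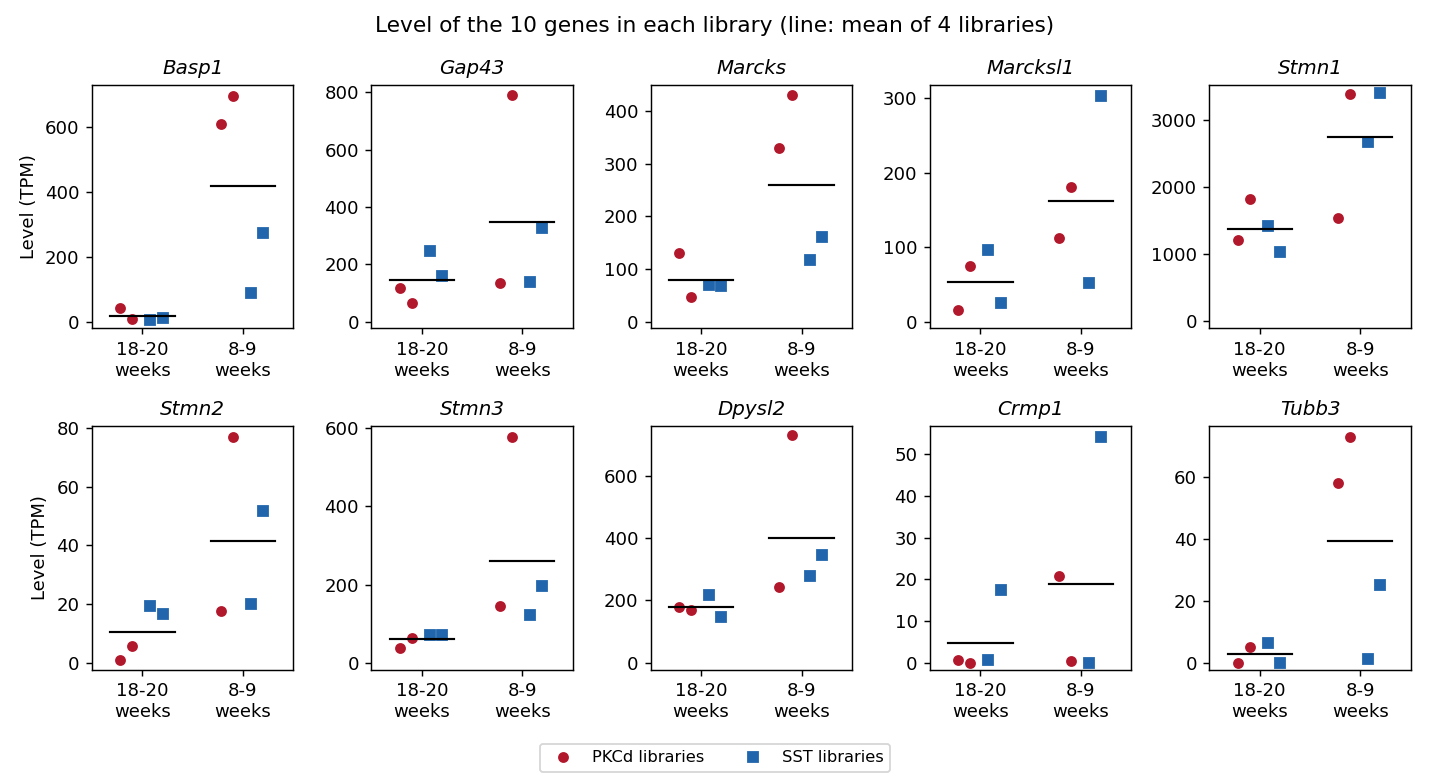
Level of each of the 10 genes in TPM (linear axis, its own scale per panel) in the 18 to 20 week and the 8 to 9 week libraries. Circles are PKCd libraries, squares SST libraries and lines the mean of 4; for Basp1, Stmn3 and Dpysl2 the age classes do not overlap.

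The older libraries had lower mean levels of all 10 genes than the younger ones. Summed over the 10 genes, TPM was 1923 ± 335 in older libraries and 4689 ± 1720 in younger libraries (SD, n = 4 each), with all older libraries (1550 to 2256) under all younger ones (3210 to 6930). Of the 9 genes with enough counts to be fitted, all 9 had a negative log2 fold change, older minus younger. Their median was -1.79, against -0.16 over the 11328 genes tested, of which 54.8% were negative. With edgeR's quasi-likelihood test, 1 of the 9 (Basp1) passed an adjusted p of 0.05, where 0.053% of all genes tested did. Since earlier results of this comparison were known when the genes were chosen, nothing is read from that count.

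Basp1, a membrane-bound substrate of protein kinase C, had the widest gap. Its level was 41.8 and 7.28 TPM in older PKCd libraries and 5.11 and 10.98 TPM in older SST libraries. In younger PKCd libraries it was 611.3 and 695.9 TPM, and in younger SST libraries 89.8 and 272.4 TPM. The age classes did not overlap, in either population. Means were 16.3 ± 17.2 TPM in older libraries and 417.3 ± 284.9 TPM in younger libraries (SD, n = 4 each), and the log2 fold change was -4.76 ± 0.68 (SE, edgeR).

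The older values of Basp1 rested on few reads, 40, 11, 8 and 29 counts.  As CPM (counts scaled to the library total), the highest older library (PKCd replicate 3) had 41.5 with an exact 95% binomial interval of 29.6 to 56.5, and the lowest younger library (SST replicate 1) had 117 with an interval of 111.4 to 122.7. Such intervals cover counting error only, since reads amplified from few cells are not independent molecules. Within a library, Basp1 exceeded 57.3% to 82.8% of the other genes in the files in older mice and 91.1% to 98.9% in younger mice. Its share of the summed TPM of the 10 genes was 0.238% to 2.41% in older and 2.58% to 19.0% in younger libraries, again without overlap. With every library thinned to the total of the shallowest, the log2 fold change was -4.43 ± 0.70. The gap was present in PKCd libraries (-4.95 ± 1.03) and in SST libraries (-4.57 ± 1.01) taken alone. In the 8 fits that left out 1 library the log2 fold change ran between -5.33 and -4.36, and edgeR called 0 of the 10 genes in each.

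Gap43, another protein kinase C substrate of axon endings, moved less and overlapped. It stood at 116.2 and 64.7 TPM in older PKCd libraries and 245.6 and 158.7 TPM in older SST libraries. Younger PKCd libraries had 136.0 and 789.6 TPM, and younger SST libraries 138.1 and 326.6 TPM. The older SST libraries lay inside the range of the younger ones, and the highest value was that of PKCd replicate 2. The log2 fold change was -1.49 ± 0.72 (SE, edgeR) and -0.51 without that library, with -2.61 ± 0.94 in PKCd and -0.40 ± 0.88 in SST libraries.

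Marcks, a filament cross-linker released from the membrane by phosphorylation, had 129.7 and 46.0 TPM in older PKCd libraries and 70.2 and 68.3 TPM in older SST libraries. Levels in younger libraries were 329.7 and 430.9 TPM in PKCd and 117.3 and 160.0 TPM in SST. Within each population the older libraries were the lower, and the age classes overlapped only because older PKCd replicate 3 exceeded younger SST replicate 1. The fold change was -1.79 ± 0.49 on the log2 scale. Its relative Marcksl1 had 16.0 and 75.1 TPM in older PKCd libraries and 96.5 and 25.5 TPM in older SST libraries. Younger levels were 111.7 and 180.8 TPM in PKCd and 51.4 and 303.7 TPM in SST libraries. The classes of Marcksl1 overlapped through younger SST replicate 1, with a log2 fold change of -1.79 ± 0.73.

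The stathmins followed the same direction with different sizes. Stmn1, which binds tubulin in many proliferating and neural cells, had 1214 and 1819 TPM in older PKCd libraries and 1418 and 1035 TPM in older SST libraries. It had 1537 and 3375 TPM in younger PKCd libraries and 2662 and 3399 TPM in younger SST libraries. Overlap came from the PKCd libraries alone, where replicate 1 lay below the older replicate 4. Its log2 fold change, -1.26 ± 0.45, was the smallest of the 9 fitted genes.

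Stmn2, the membrane-anchored neuronal stathmin also called SCG10, was low in every library. It had 1.01 and 5.79 TPM in older PKCd libraries and 19.2 and 16.6 TPM in older SST libraries, against 17.6 and 76.8 TPM in younger PKCd and 20.1 and 51.8 TPM in younger SST libraries. The 2 older PKCd values came from 1 and 9 counts, and the classes overlapped, since an older SST library exceeded younger PKCd replicate 1. The log2 fold change was -2.56 ± 1.28, and -1.71 without PKCd replicate 2. Stmn3, another neuronal stathmin, separated the classes. It had 36.9 and 64.3 TPM in older PKCd, 71.1 and 70.3 TPM in older SST, 144.9 and 578.4 TPM in younger PKCd, and 122.4 and 196.9 TPM in younger SST libraries. Every older library was below every younger one, with a log2 fold change of -2.24 ± 0.69, and -1.49 without PKCd replicate 2.

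Dpysl2 encodes CRMP2, a tubulin-binding protein of axon specification. Its level was 178.8 and 168.1 TPM in older PKCd libraries and 216.6 and 147.9 TPM in older SST libraries, which lay close together. In younger libraries it was 243.9 and 729.1 TPM in PKCd and 277.6 and 346.2 TPM in SST. The age classes did not overlap, and the log2 fold change was -1.40 ± 0.47, or -0.86 without PKCd replicate 2. With Basp1 and Stmn3 this made 3 of 10 genes whose older libraries were all lower, where 3.53% of all genes tested were so, again with nothing read from it.

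Crmp1, a relative of Dpysl2, was unevenly detected and too low for the fit. It had 0.625 and 0 TPM in older PKCd libraries and 0.764 and 17.4 TPM in older SST libraries. It had 20.7 and 0.437 TPM in younger PKCd libraries and 0 and 54.0 TPM in younger SST libraries. In 3 of the 4 pairs of mice of 1 age class and population, 1 library was under 1 TPM and the other at 17.4 TPM or more. SST replicate 1, with 0 counts of 14295789, allowed at most 0.21 CPM, while SST replicate 2 of the same age and depth class had 85.6 CPM. A second transcript of Crmp1 was seen in PKCd replicate 1 only, at 3.801 TPM. The tool had divided reads between the 2 transcripts in that library, with 132.3 counts for the second and 560.7 for the first.

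Tubb3 had 0 and 5.05 TPM in older PKCd libraries and 6.24 and 0 TPM in older SST libraries. Younger PKCd libraries had 58.1 and 72.7 TPM, and younger SST libraries 1.11 and 25.0 TPM. SST replicate 1, with 19 counts, lay inside the older range, so the classes overlapped. The counts of 0 in PKCd replicate 3 and SST replicate 4 allowed up to 3.11 and 1.19 CPM. The log2 fold change of -3.52 ± 1.85 had the largest SE of the 9 genes, and it was -5.58 without SST replicate 3.

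The same older libraries also had lower levels of neuron markers as a whole. The 12 markers, among them the synaptic genes Snap25 and Syt1, summed to 338.9 ± 97.1 TPM in older libraries and 905.5 ± 485 TPM in younger libraries (SD, n = 4 each), without overlap. All 11 markers that could be fitted had a negative log2 fold change, with a median of -1.73, beside -1.79 for the 9 fitted genes. A large part of the sum was Uchl1. Without it the sums were 187 ± 30.9 TPM in older and 502.8 ± 248.7 TPM in younger libraries, and they overlapped (144.4 to 218.1 against 133 to 669.5 TPM). Erythrocyte markers ran the other way without overlap, at 452 to 8471 TPM in older and 0.494 to 412.7 TPM in younger libraries. Endothelial markers had a higher older mean but overlapped, at 981 to 4247 TPM in older and 0.737 to 2634 TPM in younger libraries. Older means were also higher for mural (5859 against 2811 TPM), astrocyte (4575 against 2656) and microglial markers (20710 against 19450), with overlap. For oligodendrocyte markers the older mean was lower (22730 against 25400 TPM), with overlap. Markers of oligodendrocyte precursors, which also use several of the 10 genes, summed to 127.8 TPM on average in older libraries (37.6 to 325.1) and 849.1 TPM in younger libraries (53.8 to 2496), which overlapped. The part of this mixture in the levels of the 10 genes was not tested.

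**Figure D2:**
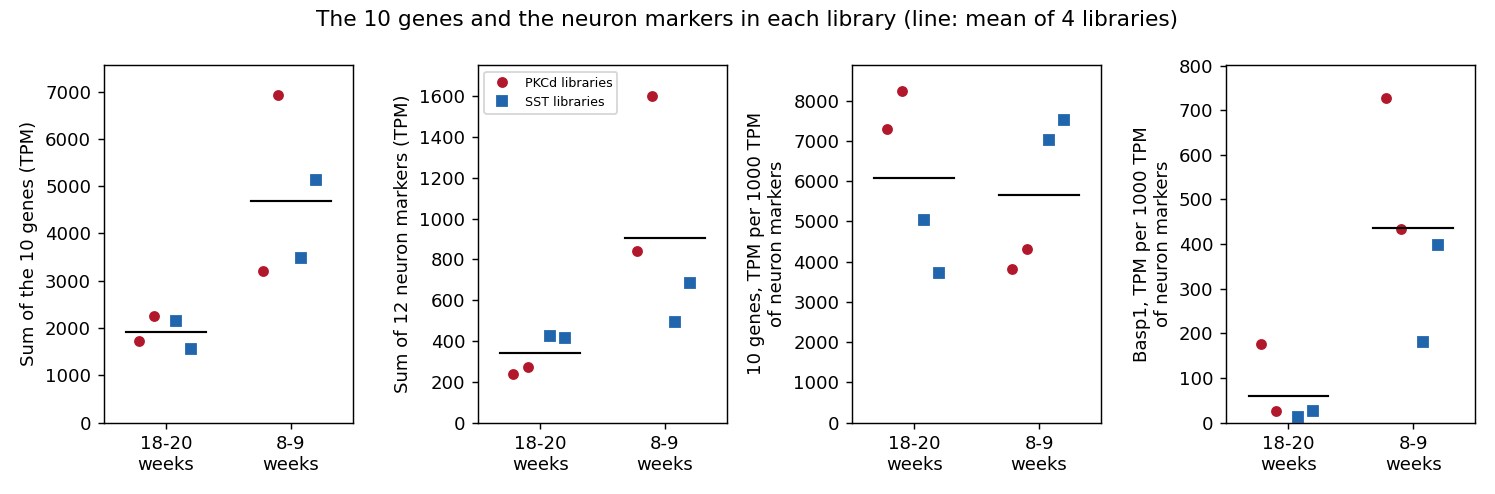
From left to right, summed TPM of the 10 genes, summed TPM of 12 neuron markers, the 10 genes per 1000 TPM of those markers, and Basp1 per 1000 TPM of those markers, by age class (circles PKCd, squares SST libraries, lines the mean of 4). The age classes overlap in the third panel only; Basp1 per unit of neuron markers lies at 11.97 to 175.7 in older and 181 to 727 in younger libraries.

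Set against the neuron markers, 1 gene of the 10 still separated the age classes. Per 1000 TPM of neuron markers, the 10 genes together stood at 6071 ± 2065 in older and 5669 ± 1866 in younger libraries (SD, n = 4 each), which overlapped. The populations went opposite ways: PKCd libraries had 7295 and 8235 when older and 3818 and 4327 when younger, and SST libraries 5039 and 3715 when older and 7018 and 7512 when younger. Most of these sums was Stmn1. The lack of overlap within each population rested on Uchl1. Without it the sum stood at 10640 ± 3416 in older and 12600 ± 9295 in younger libraries, with 9113 and 15620 in older against 5194 and 10350 in younger PKCd libraries, and 9859 and 7947 in older against 26160 and 8693 in younger SST libraries. The age classes then overlapped in both populations. The older mean was still the higher in PKCd and the lower in SST libraries, and over both populations together it was the lower. Basp1 stood at 60.2 ± 77.4 in older libraries (11.97 to 175.7) and 435.2 ± 224.4 in younger libraries (181 to 727), without overlap. The gap between PKCd replicate 3 (175.7, from 40 counts) and SST replicate 1 (181) is within the counting error of those 40 counts. Per unit of the 12 markers, 0.883% of all genes tested were lower in every older library than in every younger one. Leaving Uchl1 out of the markers gave Basp1 87.4 ± 89.2 in older (23.4 to 219.5) and 791.1 ± 272.8 in younger libraries (461 to 1039), also without overlap. The low level of Basp1 in older mice was known when the genes were chosen. With all 12 markers, 6 of the other 9 genes had a lower and 3 a higher mean per unit of neuron markers in the older libraries, and all of them overlapped.

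An edgeR fit with libraries scaled to the neuron marker counts, with and without Uchl1, was added after the data were seen. On this scale a value of 0 means a change in step with the neuron marker counts. With all 12 markers the median log2 fold change of all genes tested was 1.27. The values that follow are not taken relative to that median, and all 9 genes lay below it. Basp1 kept a log2 fold change of -3.22 ± 0.81 (SE). Tubb3 had -1.95 ± 1.79, Stmn2 -1.001 ± 1.24 and Stmn3 -0.68 ± 0.74. Marcks and Marcksl1 had -0.28 and -0.23. For Gap43, Stmn1 and Dpysl2 the direction turned, to 0.15, 0.26 and 0.16, each smaller than its SE. With Uchl1 left out of the markers these 3 had -0.08, 0.03 and -0.10, and Basp1 -3.35 ± 0.86. Under the 12-marker scaling edgeR called 0 of the 9 genes at an adjusted p of 0.05, and 5 of all genes tested.

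**Figure D3:**
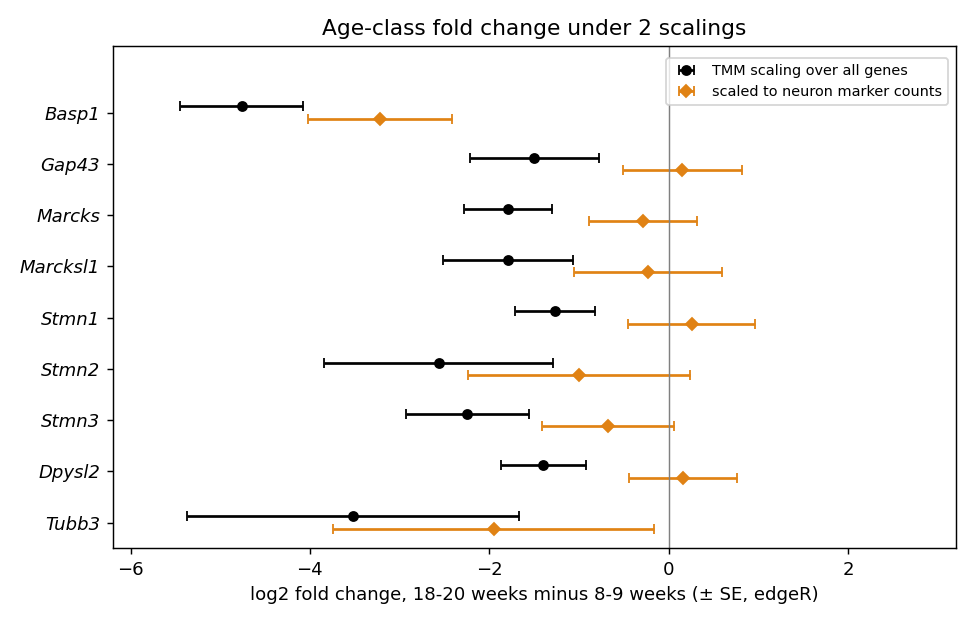
Log2 fold change, older minus younger, of the 9 fitted genes with bars of ± 1 SE from edgeR, under TMM scaling over all genes (circles) and scaling to neuron marker counts (diamonds). Under the second scaling 8 of 9 genes lie between -1.95 and 0.26, and Basp1 lies at -3.22.

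Other genes of the same machinery, 67 in 5 lists, mostly leaned the same way without single calls. Of the 61 that could be fitted, 50 had a negative log2 fold change, older minus younger, against 54.8% of all genes tested. These lists too were chosen with earlier results of these data known, so nothing is read from that count. All 11 fitted neuron markers were negative as well, and the part of neuron content in this lean was not tested. Called at an adjusted p of 0.05 by edgeR were 0 of 61, where 0.053% of all genes were. An unadjusted p under 0.05 was seen for 10, and for 8.35% of all genes. DESeq2 called 4 of the 61, where it called 256 higher and 312 lower of all 11328 genes tested. In 4 of the lists median log2 fold changes were -1.27 for 20 microtubule regulators, -1.26 for 10 semaphorin receptors and CRMP kinases, -0.76 for 11 tubulins and -0.48 for 17 growth cone genes. The list of semaphorin receptors and CRMP kinases was split, with 3 positive and 7 negative values. All 3 positive values belonged to receptors, and the negative ones to receptors and kinases.

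By level, 2 genes were taken from each of these 4 lists. Fyn, a kinase that phosphorylates CRMP2, had the most negative value of these 8, -3.85 ± 1.02, with 0 to 14.3 TPM in older and 14.1 to 304.2 TPM in younger libraries, which overlapped slightly. Cdk5, the neuronal kinase that primes CRMP2, had -1.55 ± 0.51, and Stmn4, the remaining stathmin, -1.51 ± 0.57. Tubb4a, a beta tubulin of neurons and oligodendrocytes, had -1.83 ± 0.76, Tuba1a, an alpha tubulin, -1.17 ± 0.41, and Tbca, a tubulin-folding cofactor, -0.98 ± 0.81. The actin regulators Tmsb4x and Cfl1 had -0.82 ± 0.48 and -0.43 ± 0.41. The other 6 thus lay between -3.85 and -0.98, without a test between them and the actin regulators. Younger SST replicate 2 had the highest level of Fyn (304.2 TPM), Cdk5 (184), Stmn4 (1126), Tubb4a (2852) and Tuba1a (3566). Tbca, Tmsb4x and Cfl1 were highest in other libraries. SST replicate 2 also had the highest marker sums of oligodendrocytes (59990 TPM) and their precursors (2496 TPM). The part of those cells in these levels was not tested.

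Between the cell populations, none of the 10 genes separated PKCd from SST libraries. With edgeR's quasi-likelihood test, 0 of the 9 fitted genes passed an adjusted p of 0.05, where 0.282% of all genes did. At an unadjusted p under 0.05 there was 1 gene, Basp1, against 6.67% of all genes. DESeq2, limma-voom and limma on log2(TPM + 1) also called 0. The edgeR test called neither driver gene, Prkcd or Sst, so a lack of calls does not show that levels were equal. The median log2 fold change, PKCd minus SST, was 0.33 for the 9 genes and -0.08 over all genes tested. The TPM ranges overlapped for all 10 genes, where 3.88% of all genes tested were higher and 3.05% lower without overlap. In PKCd libraries the sum of the 10 averaged 3533 ± 2346 TPM, and in SST libraries 3079 ± 1591 TPM (SD, n = 4 each).

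Basp1 was the gene nearest to a population difference. PKCd libraries averaged 339.1 ± 365.1 TPM, and SST libraries 94.6 ± 124.7 TPM. Both PKCd libraries lay above both SST libraries at 8 to 9 weeks, and 1 of 2 did at 18 to 20 weeks. On the log2 scale the difference was 1.81 ± 0.61 (SE), at an unadjusted p of 0.0123 and an adjusted p of 0.447 in edgeR. Within age classes it was 1.61 ± 0.92 at 18 to 20 weeks and 1.98 ± 0.90 at 8 to 9 weeks.

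In PKCd libraries Marcks averaged 234.1 ± 177.1 TPM, and in SST libraries 104 ± 43.7 TPM, with a log2 fold change of 0.94 ± 0.48 and an adjusted p of 0.792 in edgeR. Microglia also express this gene, and the microglial marker sum was 30860 to 50160 TPM in PKCd against 464 to 5960 TPM in SST libraries. Its part in the level of Marcks was not tested. For Tubb3 the means were 34.0 ± 36.8 TPM in PKCd and 8.10 ± 11.6 TPM in SST libraries, with a log2 fold change of 1.34 ± 1.78, which ran between 0.61 and 3.25 with 1 library left out (without SST replicate 1 and without SST replicate 3).

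The remaining genes were near 0 or imprecise. Gap43 had 0.04 ± 0.72, Stmn1 0.04 ± 0.44, Dpysl2 0.33 ± 0.47, Stmn3 0.42 ± 0.67, Marcksl1 -0.19 ± 0.71 and Stmn2 -0.84 ± 1.25, all as log2 fold changes, PKCd minus SST, with SE. For Gap43 and Stmn1 the sign turned under several other scalings, among them upper quartile scaling. Standard errors of 0.44 to 1.25 leave room for differences of about that size in either direction, so the populations were not shown to be alike. With 1 library left out Stmn2 ran between -1.73 (without PKCd replicate 2) and -0.21 (without PKCd replicate 3). Of the 61 other genes of the machinery, edgeR called 0 between the populations at an adjusted p of 0.05, with 6 at an unadjusted p under 0.05, and DESeq2 and limma called 0. Among those named above, Tuba1a had -1.047 ± 0.41 (adjusted p of 0.597) and Tmsb4x, which is also abundant in microglia, 1.054 ± 0.48 (adjusted p of 0.743).

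**Figure D4:**
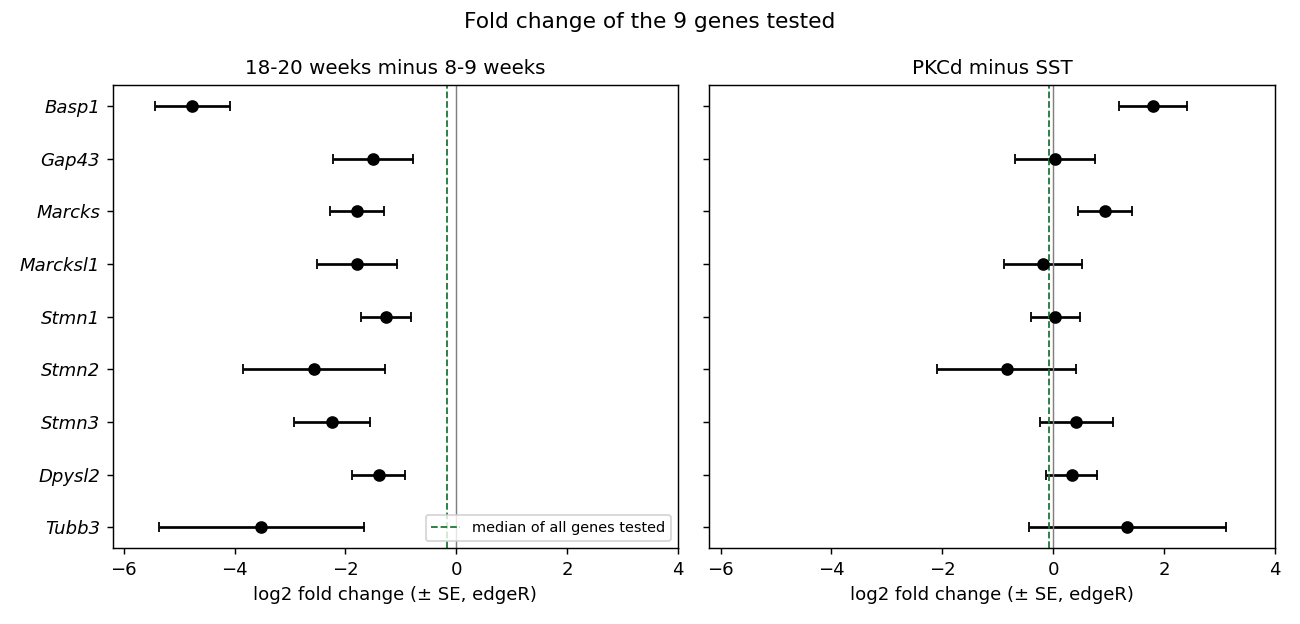
Log2 fold change of the 9 fitted genes with bars of ± 1 SE from edgeR, older minus younger (left) and PKCd minus SST (right), with the median of all genes tested as a dashed line. All 9 values are negative on the left, and they fall on both sides of 0 on the right.

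Whether the age difference itself differed between the populations was tested with an interaction term. None of the 9 genes passed in edgeR, with an adjusted p of 1.00 for each, and none had an unadjusted p under 0.05. Over all genes tested 0% passed and 4.12% had an unadjusted p under 0.05, and DESeq2 called 0 of the 9. The interaction of Basp1 was -0.37 ± 1.26 on the log2 scale. Larger values with wide errors were seen for Gap43 (-2.21 ± 1.26), Tubb3 (-2.70 ± 3.33) and Stmn2 (-2.85 ± 2.29), each in the direction of a bigger difference in PKCd libraries. Counted by overlap, 8 of 10 genes were lower in both older PKCd libraries than in both younger ones (22.9% of all genes tested), and 6 of 10 were so in SST libraries (13.8% of all genes tested). These counts rest on 2 libraries a side and on the age comparison, and nothing is read from them.

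For 5 of the 10 genes RefSeq start sites of GRCm38.p6 gave a promoter window. Of the 3 genes whose age classes did not overlap, Basp1 and Stmn3 have one, and the 250 bases before each start are shown 5′ to 3′ on the gene's strand, with CpG pairs in capitals.
Basp1, chr15:25413765-25414014, minus strand: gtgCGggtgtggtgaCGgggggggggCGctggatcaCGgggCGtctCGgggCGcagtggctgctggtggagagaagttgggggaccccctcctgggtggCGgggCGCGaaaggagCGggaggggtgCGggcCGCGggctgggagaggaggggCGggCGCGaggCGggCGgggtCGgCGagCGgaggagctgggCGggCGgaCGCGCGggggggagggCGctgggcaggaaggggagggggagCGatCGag
Stmn3, chr2:181314501-181314750, minus strand: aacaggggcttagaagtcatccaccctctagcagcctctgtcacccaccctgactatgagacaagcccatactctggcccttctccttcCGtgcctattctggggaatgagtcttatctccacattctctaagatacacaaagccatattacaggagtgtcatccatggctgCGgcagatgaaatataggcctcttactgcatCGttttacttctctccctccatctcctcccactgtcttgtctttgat
The Basp1 window held 30 CpG pairs and 78.8% G and C, and that of Stmn3 3 CpG pairs and 48.8%. The median of 32851 windows of the same length was 6 CpG pairs and 52.4%. The letters GGGCGG, searched on both strands, occurred in 4 of the 6 windows of the 10 genes, Basp1 included and Stmn3 not, and in 32.7% of all windows. TATAAA, searched likewise, occurred in 0 of the 6 and in 12.4% of all windows. The 2 windows thus differed in base composition, as a description of these letters only.

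Genes with a pattern most like Basp1 over the 8 libraries were Grb2 (r = 0.972), Bloc1s3 (0.960) and Ttf1 (0.9497), by Pearson correlation of log2(TPM + 1) among 7972 genes. For Tubb3 they were Arf3 (0.952), Mbd3 (0.9504) and Map2k2 (0.949). Grb2, for example, had 22.2 and 6.82 TPM in older PKCd and 10.96 and 6.76 TPM in older SST libraries, against 96.5 and 128.8 TPM in younger PKCd and 24.7 and 69.0 TPM in younger SST libraries. The 8 points share age class and depth, so these values describe likeness and carry no test.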

How the data were processed

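RNA of sorted central amygdala cells was measured in 8 libraries, grouped by the labels into PKCd and SST (n = 4 each) and into 18 to 20 and 8 to 9 weeks (n = 4 each). The deposited estimated counts are per transcript and come from the authors' run of kallisto, whose column names they carry, per the file headers. The deposited TPM values correct for transcript length and share 1 total, so they keep no depth. Transcript lengths come with them. Tools listed in the submitters' processing notes are BWA 0.7.12 and kallisto 0.43.0, with the build mm10. What BWA was used for is not known here.

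Both values were summed per gene over 30404 targets, of which 30080 were named from RefSeq, 147 from GENCODE and 177 kept only their accession. Of the 10 genes, 9 had 1 target. Estimated counts were rounded and tested with edgeR 4.0.16 (quasi-likelihood, TMM, default expression filter by population, terms for age class and population) in R 4.3.3, with Benjamini-Hochberg adjustment over 11328 genes and a threshold of 0.05. A fit with 4 cells gave the interaction and the differences within a class. Scripts were tested on simulated data. Log2 fold changes are older minus younger and PKCd minus SST.

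The 10 genes, the other lists and the rules were chosen with earlier results of these data known. Genes named from the 5 other lists are those called and the 2 of highest mean TPM per list, of which some are not reported here; pattern neighbours are the 3 most correlated genes of at least 10 TPM. Alternatives were RLE and upper quartile scaling, DESeq2 1.42.0, no filter, at least 10 CPM in 4 libraries, limma 3.58.1 (voom, log2(TPM + 1), log2(TPM + 0.1)), thinning, no age or population term, the replicate block, single classes, each library left out, and, added later, neuron marker scaling with and without Uchl1. Nothing in the labels pairs the replicate numbers, and each library is 1 mouse, so p-values hold the spread between mice with that of sorting and amplification. A single read equalled 1.04 CPM at the lowest depth and 0.0548 CPM at the highest, and 0 counts allow up to 3.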

Additional observations from a re-analysis of the deposited data

Results flagged for a closer look

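Groups of 4 libraries were searched for a library far from the other 3, in TPM and per 1000 TPM of neuron markers, a measure added after the data were seen. Of 88 groups, 14 held one, where chance gives about 1 in 20 for 4 values drawn from 1 normal distribution. The groups mix ages or populations, so that rate need not hold for them. The groups share libraries, so the 14 are not independent.

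In TPM there were 7. PKCd replicate 2 stood apart in 3 of them, for Gap43 among PKCd libraries (789.6 TPM), for Dpysl2 among PKCd libraries (729.1 TPM) and for Stmn3 among younger libraries (578.4 TPM). Basp1 in PKCd replicate 3 was the highest of the older libraries (41.8 TPM), and Stmn2 in SST replicate 2 the highest of the SST libraries (51.8 TPM). Crmp1 stood apart in SST replicate 4 among older libraries (17.4 TPM) and in PKCd replicate 1 among PKCd libraries (20.7 TPM).

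Per 1000 TPM of neuron markers there were another 7. PKCd replicate 3 stood apart among older libraries for Basp1 (175.7) and Marcks (545.6), PKCd replicate 4 among older libraries for Stmn3 (234.9), and SST replicate 4 among older libraries for Crmp1 (41.8). SST replicate 2 stood apart for Marcksl1 among younger libraries (444.2) and for Stmn2 among SST libraries (75.7), and PKCd replicate 1 for Crmp1 among PKCd libraries (24.6).

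On that scale some differences ran in opposite directions, with no overlap, in 5 of 22 checks. The share of all genes that did so was not counted, so nothing is read from the 5. Without Uchl1 among the markers 0 of 22 did so, since Stmn1 then overlapped between the age classes in SST libraries (6505 and 5304 in older, 20020 and 5753 in younger), and the sum of the 10 genes and Dpysl2 overlapped in both comparisons. The values that follow are those with Uchl1. Stmn1 per 1000 TPM of neuron markers was 5873 in older and 1967 in younger PKCd libraries, a difference of 3905, and 2902 in older and 5170 in younger SST libraries, a difference of -2268. Read the other way, Stmn1 in PKCd minus SST was 2971 at 18 to 20 weeks and -3203 at 8 to 9 weeks. The sum of the 10 genes, most of which is Stmn1, had an older minus younger difference of 3693 in PKCd and of -2888 in SST libraries, and a PKCd minus SST difference of 3388 at 18 to 20 weeks and -3192 at 8 to 9 weeks. Dpysl2 had a PKCd minus SST difference of 251.8 at 18 to 20 weeks and -160.5 at 8 to 9 weeks. Each side rests on 2 libraries. These differences of ratios were not tested. An interaction fitted with neuron marker scaling in edgeR called 0 of 9 genes at an adjusted p of 0.05.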

How the results depend on the processing

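Crmp1, Tubb3 and Stmn2 had under 10 counts in some of the older libraries, which are the shallower ones. Low counts also occurred in deep libraries, for Crmp1 0 in SST replicate 1 and 9 in PKCd replicate 2, and for Tubb3 19 in SST replicate 1. Crmp1 had 77 counts in older SST replicate 4. The cause of the low counts was not tested. The number of genes called lower in older libraries, 1 in edgeR, was 0 under RLE scaling, under a filter of 10 CPM, in limma-voom, without a population term, within PKCd and within SST libraries, under neuron marker scaling with and without Uchl1 and in the 8 fits without 1 library (0 to 0). DESeq2 called 3, Basp1, Marcks and Stmn3, where it called 312 of all 11328 genes tested lower. Basp1 kept its direction in all of these fits, with log2 fold changes of -5.33 to -3.22. Of the 67 other genes, 0 were called in edgeR, 4 in DESeq2 and 2 without a filter. Over all genes DESeq2 called 256 higher and 312 lower of 11328, and the fit without a filter 116 higher and 132 lower of 16834. RLE scaling moved the median of all genes in that comparison to -0.06, against -0.16 under TMM. Of 196 single values for age class, 4 reversed, under neuron marker scaling Gap43 0.15, Stmn1 0.26 and Dpysl2 0.16, and without Uchl1 Stmn1 0.027.

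Of 205 single values for PKCd against SST, 35 reversed. Gap43 was -0.045 under upper quartile scaling, -0.28 on log2(TPM + 1) and on log2(TPM + 0.1), -1.08 within 18 to 20 weeks and -0.34 under neuron marker scaling. Stmn1 was -0.029 under upper quartile scaling, -0.22 in limma-voom, -0.053 on both TPM scales, -0.092 without an age term, -0.29 within 8 to 9 weeks and -0.32 under neuron marker scaling. Marcksl1 was 0.071 in limma-voom, Stmn2 0.10 without an age term and 0.54 within 8 to 9 weeks, Stmn3 -0.43 and Tubb3 -0.090 within 18 to 20 weeks, and Dpysl2 -0.044 under neuron marker scaling. With that scaling without Uchl1, Gap43 was -0.51, Stmn1 -0.57, Stmn3 -0.18 and Dpysl2 -0.29. With 1 library left out the ranges were -0.13 to 0.55 for Dpysl2, -0.92 to 0.41 for Gap43, -0.73 to 0.27 for Marcksl1, -0.16 to 0.32 for Stmn1 and -0.30 to 0.74 for Stmn3. The cause was not tested.

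Same-numbered libraries correlated at 0.08, 0.12, 0.06 and 0.17 in their deviations, so the numbers were not taken as a pairing. With the replicate block 0 of the genes and 24 of all genes were called between the populations, and Gap43 was -0.30 and Stmn1 -0.021.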
